A study of Canis lupus familiaris with 16 samples.

Results

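T and B lymphocytes in canine soft tissue sarcomas were followed through 10 genes, PTPRC, CD3E, CD3D, CD4, CD8A, CD2, CD5, MS4A1, CD79A and CD79B, chosen by name among the 41818 genes counted. RNA came from formalin-fixed, paraffin-embedded sections of 16 tumors of dogs aged 2 to 14 years, and the tumors were grouped by the molecular identity given in the labels. There were 4 fibrosarcomas (FS, dogs of 9 to 13 years), 6 peripheral nerve sheath tumors (PNST, 8 to 13 years) and 6 perivascular wall tumors (PWT, 2 to 14 years). S1-10 was a PWT by histology and a PNST by molecular identity, and S2-08 was an FS by histology and a PWT by molecular identity. Both were moved on the basis of gene expression in these same tumors, so the groups compared here are not independent of the counts tested. S1-04 and S1-05 carried identical labels, so the 6 PNST may come from 5 or 6 dogs. Of the tumors whose names begin with S1, 3 were FS, 5 PNST and 1 PWT, and of those beginning with S2, 1 was FS, 1 PNST and 5 PWT.

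PTPRC encodes CD45, a phosphatase on the surface of nearly all leukocytes, macrophages included. CD3D and CD3E are subunits of the CD3 complex, which carries the signal of the T cell receptor, and CD4 and CD8A are the co-receptors that divide most T cells into helper and cytotoxic cells. CD2 and CD5 are further T cell surface proteins. MS4A1, which encodes CD20, marks B cells, and CD79A and CD79B form the signalling part of the B cell receptor. In dogs, unlike in people, CD4 is also found on neutrophils.

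Between 507728 (S1-12) and 4311876 (S1-03) counts per tumor fell on genes, with a median of 1934469. Levels are given as CPM, counts per 1000000 after TMM scaling, and compared between tumors for the same gene. A count of 0 allowed a level of up to 0.840 CPM in the deepest tumor and 5.45 CPM in the shallowest, if the limit is set at 3 counts, and such limits cover counting error only. All 10 genes together had 2457 counts over the 16 tumors. PTPRC had 917 of them, CD5 720, CD4 357, CD2 164 and CD3E 139, and these 5 genes reached 10 counts in 4 or more tumors, the minimum for a test.

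The other 5 genes had too few counts for a test. CD79A had 55 counts in all, with at least 10 in 2 tumors, and CD79B 37, with at least 10 in 1 tumor. MS4A1 had 29 counts and none in 10 tumors, CD8A 21 and none in 11 tumors, and CD3D 18 and none in 8 tumors. CD3E and CD2 met the minimum in exactly 4 tumors, S1-02, S1-04, S1-05 and S2-03, so with any 1 of these left out neither was tested.

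**Figure D1:**
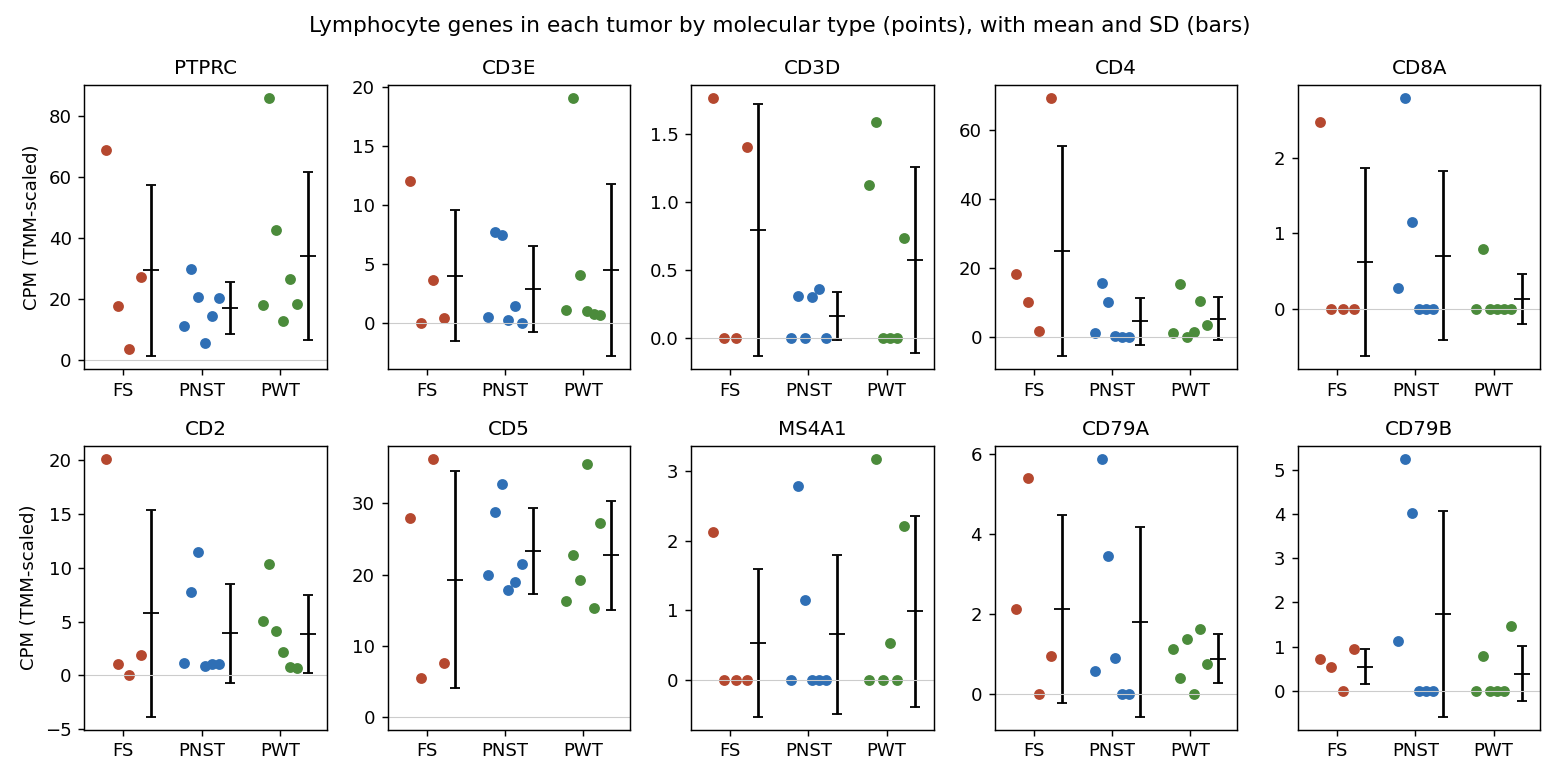
Level of each of the 10 lymphocyte genes (CPM, y axis, its own scale for each gene) in the 4 FS, 6 PNST and 6 PWT (x axis). Each point is a tumor, and the bar beside each type shows its mean and SD. The points of the 3 types overlap for each gene, and CD3E lies above 7 CPM in S1-02, S1-04, S1-05 and S2-03, at least 1 tumor of each type.

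Each type was compared with both other types. None of the 5 tested genes was a DEG, which was taken as an adjusted p-value under 0.05 with a log2 fold change above 1 in either direction. For FS, 0 of 5 were DEGs with edgeR's quasi-likelihood test, against 1455 of all 15408 genes tested (9.44%), and 1 of 5, CD4, and 3916 of all genes had an unadjusted p under 0.05. For PWT, 0 of 5 were DEGs against 322 genes in all (2.09%), and 0 of 5 and 3451 of all genes had an unadjusted p under 0.05. For PNST, 0 of 5 were DEGs against 0 genes in all (0%), and 0 of 5 and 2418 of all genes had an unadjusted p under 0.05. DESeq2 also found 0 of these genes in each comparison, while its calls over the whole table numbered 2091 (FS), 295 (PNST) and 881 (PWT). The median log2 fold change of the 5 tested genes was 0.27 in FS, -0.65 in PNST and 0.09 in PWT, and that of all genes tested was 0.00, -0.06 and -0.08. The median of the 5 genes in FS was the value of PTPRC, which became -0.55 without S1-02. The 3 comparisons share their tumors and are not independent of each other.

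The number of DEGs among all genes depended on the grouping, on single tumors and, in PWT, on the prefix. With the tumors grouped by histology it was 205 in FS and 0 in PNST and PWT, with 2374, 1226 and 2232 genes at an unadjusted p under 0.05 in edgeR. In PWT, leaving out S2-04 gave 14 DEGs and leaving out S2-11 gave 11. The count was 148, 153, 202 or 212 when S2-03, S2-09, S1-03 or S1-09 was left out, 487 when S2-07 was, and 0 in a model that included the prefix. In FS it was 911 with S1-11 left out, 825 among the 9 S1 tumors and 1458 when the prefix was included. In PNST it was 3 with S1-07 left out and 1 with S1-03, S1-04 or S1-05 left out. None of the lymphocyte genes was a DEG in the model that included the prefix.

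PTPRC was counted in all 16 tumors. Its level in FS was 68.9 CPM in S1-02, 27.2 in S2-06, 17.8 in S1-11 and 3.63 in S1-12 (from 2 counts). In PNST it ranged from 5.65 (S1-09) to 29.7 CPM (S1-04) with a median of 17.4, and in PWT from 12.9 (S2-08) to 85.9 CPM (S2-03) with a median of 22.5. A high tumor was thus found in FS and in PWT, and the ranges of the 3 types overlapped. The mean was 34.1 ± 27.5 CPM in PWT (SD, n = 6), 29.4 ± 28.1 in FS (SD, n = 4) and 17.0 ± 8.46 in PNST (SD, n = 6). Without S1-02 the mean of FS was 16.2 CPM, below that of PNST. PNST against both other types gave a log2 fold change of -0.95 ± 0.50 (SE, edgeR adjusted p = 0.363). For FS it was 0.27 ± 0.57 (adjusted p = 0.817), which became -0.55 without S1-02. For PWT it was 0.61 ± 0.50 (adjusted p = 0.486), and 0.06 to 1.01 when a tumor was left out.

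CD3E was at 12.0 CPM in S1-02, 3.63 in S1-12 (from 2 counts), 0.468 in S2-06 and 0 in S1-11 among FS. In PNST the level was 7.74 CPM in S1-04 and 7.48 in S1-05, and from 0 (S2-07) to 1.43 CPM (S1-10) in the other 4 tumors. In PWT it was 19.1 CPM in S2-03 and 4.12 in S2-04, the latter from 3 counts, and from 0.737 (S2-11) to 1.12 CPM (S1-07) in the other 4. Each type thus held at least 1 tumor with CD3E well above the rest and several with 0 to 2 counts. In bulk tissue, fewer T cells and less CD3E RNA in each T cell cannot be told apart. The means were 4.49 ± 7.27 CPM in PWT (SD, n = 6), 4.03 ± 5.56 in FS (SD, n = 4) and 2.92 ± 3.67 in PNST (SD, n = 6), and the SD was larger than the mean in each type. Without S1-02 the mean was 1.37 CPM in FS, and without S2-03 it was 1.57 in PWT.

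CD2 had its highest levels in the same 4 tumors as CD3E, in another order. It was at 20.1 CPM in S1-02, 11.5 in S1-05, 10.3 in S2-03 and 7.74 in S1-04. In the other 12 tumors it ranged from 0 (S1-12) to 5.05 CPM (S1-07). The log2 fold change of CD2 was 0.70 ± 0.81 in FS, -0.39 ± 0.78 in PNST and -0.26 ± 0.80 in PWT (SE), with edgeR adjusted p-values of 0.639, 0.836 and 0.875. For CD3E it was 0.15 ± 1.03, -0.65 ± 0.94 and 0.49 ± 0.92, with adjusted p-values of 0.951, 0.763 and 0.792. The 95% intervals for CD3E ran from -2.01 to 2.32 in FS, from -2.62 to 1.33 in PNST and from -1.45 to 2.42 in PWT, so differences of more than 2-fold in either direction lay within them.

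**Figure D2:**
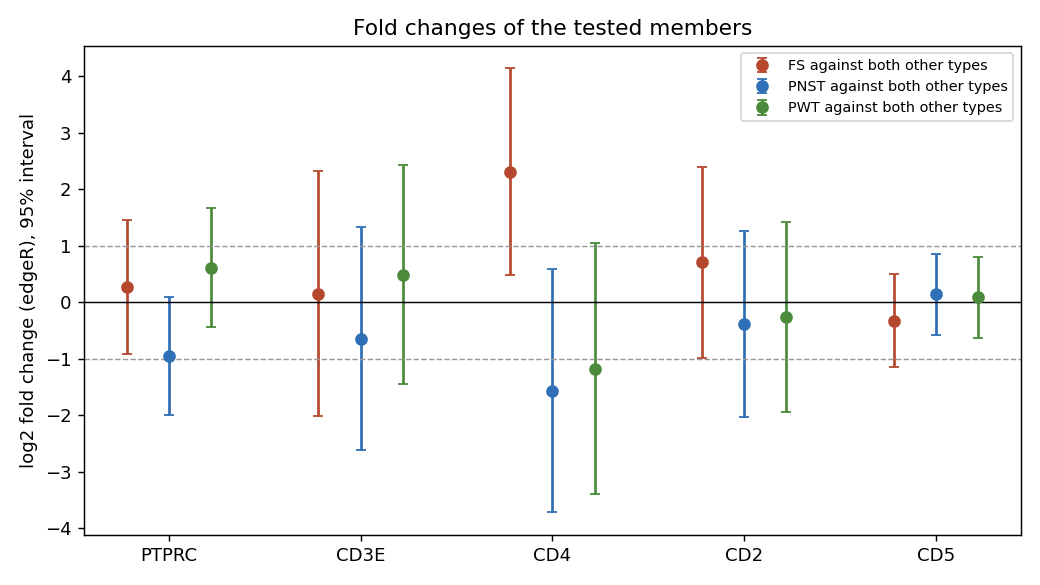
Log2 fold change (y axis) of the 5 tested lymphocyte genes (x axis) in each type against both other types, with 95% intervals from edgeR; dashed lines mark -1 and 1. The interval of CD4 in FS, from 0.48 to 4.15, is the only one of the 15 that does not include 0.

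CD5 differed from CD3E and CD2 in its spread. It was counted in all 16 tumors, at least 10 times in each. In FS it was at 36.3 CPM in S1-12, 27.9 in S1-02, 7.49 in S2-06 and 5.40 in S1-11, in PNST it ranged from 17.8 to 32.8 CPM (median 20.7) and in PWT from 15.3 to 35.5 CPM (median 20.9). S2-08 had 66 counts of CD5 and 2 of CD3E, and S1-09 had 60 counts of CD5 and 1 of CD3E. The log2 fold change of CD5 was -0.32 ± 0.39 in FS, 0.14 ± 0.34 in PNST and 0.09 ± 0.34 in PWT (SE, edgeR adjusted p = 0.658, 0.866 and 0.900). In an alternative chosen after seeing the data, without the 5 tumors in which KRT5, KRT14, KRT1 and KRT10 summed to over 100 CPM, CD5 was called lower in FS, with a log2 fold change of -1.67 ± 0.41 (SE, edgeR adjusted p = 0.0258), where FS was represented by S1-11 and S2-06. Of the 10 lymphocyte genes only PTPRC and CD5 were tested there, and 1020 of 13893 genes were called in FS.

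CD4 was highest in S2-06, an FS, with 69.3 CPM from 148 counts. The other FS had 18.4 (S1-02), 10.3 (S1-11) and 1.82 CPM (S1-12). In PNST CD4 ranged from 0 to 15.8 CPM (S1-04) with a median of 0.849, and in PWT from 0 to 15.5 CPM (S2-03) with a median of 2.65. S2-06 and S1-11 had CD4 with 1 and 0 counts of CD3E, while S1-02, S1-04, S1-05 and S2-03, the 4 tumors with the highest CD3E, had CD4 at 10.4 CPM (S1-05) or more. The log2 fold change of CD4 in FS was 2.31 ± 0.88 (SE), with an unadjusted p of 0.0161 and an edgeR adjusted p = 0.0988, and it was 1.11 without S2-06. PNST and PWT gave -1.56 ± 1.03 and -1.18 ± 1.06 (SE, adjusted p = 0.469 and 0.530). Without S2-06 these were -0.68 and -0.24, without S1-04 PNST was at -2.62, and PWT was at -1.90 without S2-03 and -2.45 with the prefix included.

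All 8 neutrophil markers were counted in at least 1 tumor, and their summed level was 1119 CPM in S2-06. It was 68.5 CPM in S2-09, 40.0 in S1-11, 31.1 in S1-05, 15.5 in S1-04, 14.5 in S1-02, 13.1 in S2-03 and 10.9 in S1-12. In the other 8 tumors it was 7.13 (S1-09), 5.89 (S2-11), 5.49 (S2-04), 4.97 (S2-07), 4.84 (S2-08), 4.49 (S1-07), 3.57 (S1-10) and 1.68 CPM (S1-03). The most abundant of these genes was the chemokine gene CXCL8, at 986 CPM in S2-06 and 40.3 in S2-09, most of the sum in both. In S1-05 most of the sum was S100A8, at 19.6 CPM. CSF3R, the receptor for granulocyte colony-stimulating factor, was at 61.3 CPM in S2-06, 10.5 in S2-09 and 8.11 in S1-11, and at most 3.63 in the other 13 tumors. These 3 tumors had CD4 at 69.3, 10.5 and 10.3 CPM with 0 or 1 count of CD3E. MPO had 2 counts and ELANE 0 in S2-06. The part of neutrophils in the CD4 level was not tested. CXCL8 was a DEG in FS (log2 fold change 6.10 ± 1.28, SE, edgeR adjusted p = 0.00529), but not without S2-06 (0.20), and DESeq2 gave it no p-value. It was not tested among S1 tumors, from the first runs or without the 5 keratin tumors.

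**Figure D3:**
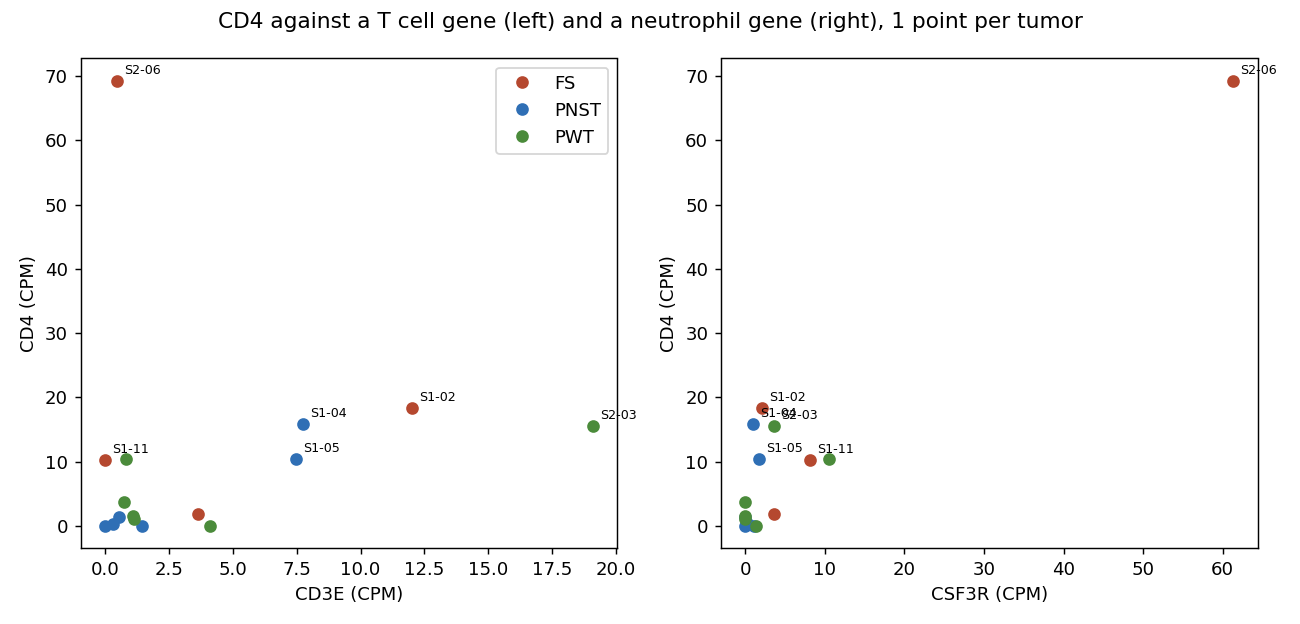
CD4 (CPM, y axis) against the T cell gene CD3E (left) and the neutrophil gene CSF3R (right), both in CPM on the x axis, with 1 point per tumor. S2-06 is highest for CD4 and CSF3R and has 0.468 CPM of CD3E, while S1-02, S1-04, S1-05 and S2-03 have CD4 together with CD3E.

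CD3D and CD8A gave few counts in the tumors where CD3E was high. S1-02, with 34 counts of CD3E, had 5 of CD3D and 7 of CD8A, S2-03, with 48 of CD3E, had 4 and 2, and S1-04, with 25, had 1 and 9. S2-06 had 3 counts of CD3D beside 1 of CD3E. CD8B, the partner chain of CD8A, had 100 counts in S1-02 (35.3 CPM), 19 in S1-04 (5.88 CPM) and 4 in S2-03 (1.59 CPM). Its second highest level was 6.63 CPM in S2-07, from 12 counts and with 0 counts of CD3E. The tumor with most CD3E, S2-03, was thus not the tumor with most CD8B. CD3D, CD3E and CD3G lie next to each other in the UU_Cfam_GSD_1.0 assembly, as do CD8A and CD8B. CD4, CD8A and CD79A overlap uncharacterized genes there, and since the sources used here do not state whether strand was used in counting, their counts are less certain.

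Of the B cell genes, MS4A1 had 9 counts in S1-04 (2.79 CPM), 8 in S2-03 (3.18 CPM), 6 in S1-02, 3 in S2-11, 2 in S1-05 and 1 in S2-08. CD79A and CD79B were highest together in S1-04, with 19 and 17 counts (5.88 and 5.26 CPM), followed for CD79B by S1-05, with 6 and 7 counts. In S1-11 CD79A had 10 counts (5.40 CPM), CD79B 1 and MS4A1 0. S2-03 had MS4A1 with 1 count of CD79A and 2 of CD79B. The 3 B cell genes therefore had different orders of tumors at these counts. Of the 3 runs of S1-02, 1 held all 6 counts of MS4A1, and the runs of S1-04 held 2, 7 and 0. The ranges of the 3 types overlapped for each of these genes. The mean of CD79A was 2.12 ± 2.36 CPM in FS (SD, n = 4), 1.80 ± 2.38 in PNST and 0.874 ± 0.611 in PWT (SD, n = 6), and it was 1.02 in FS without S1-11 and 0.981 in PNST without S1-04. That of CD79B was 0.546 ± 0.398 CPM in FS (SD, n = 4), 1.74 ± 2.33 in PNST and 0.378 ± 0.624 in PWT (SD, n = 6), and it was 1.03 in PNST without S1-04 and 0.159 in PWT without S2-11.

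When the 3 types were put in order of their mean for each of the 10 genes, 20 differences between neighbours in that order were obtained. None of the 20 was larger than the larger SD of the pair, and the ranges overlapped in all 20.

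Of 6 pairs of genes planned, 4 had both genes counted in at least 8 tumors, and their log2(CPM + 1) values were correlated over the 16 tumors with permutation tests, adjusted over the 4 pairs. CD79A with CD79B gave a Pearson r of 0.63 (permutation p = 0.00893, adjusted 0.0357) and a Spearman rho of 0.45 (permutation p = 0.0784, adjusted 0.105). Without the 2 tumors farthest from the median of CD79A, S1-04 and S1-11, r was 0.55 (permutation p = 0.0411, adjusted 0.0822), and with S1-04 and S1-05 summed it was 0.54 (permutation p = 0.0407, adjusted 0.0813). It was 0.71 among the 9 S1 tumors (exact permutation p = 0.0335, adjusted 0.134) and 0.10 among the 7 S2 tumors (exact permutation p = 0.843).

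PTPRC with CD3E gave an r of 0.56 (permutation p = 0.0237, adjusted 0.0475) and a rho of 0.52 (permutation p = 0.0412, adjusted 0.105). Without S1-12 and S2-03, the farthest for PTPRC, r was 0.64 (permutation p = 0.0116, adjusted 0.0464). It was 0.55 among S1 tumors (exact permutation p = 0.127) and 0.86 among S2 tumors (exact permutation p = 0.0190, adjusted 0.0762), while rho was 0.62 (exact permutation p = 0.0857) and 0.46 (exact permutation p = 0.302). The adjusted permutation p was 0.0813 with S1-04 and S1-05 summed and 0.0748 with a pseudocount of 0.5. CD3E with CD3D gave an r of 0.38 (permutation p = 0.144, adjusted 0.192) and a rho of 0.35 (permutation p = 0.182), and r was -0.16 without S1-02 and S2-03. PTPRC with CD79A gave an r of 0.33 (permutation p = 0.218) and a rho of 0.47 (permutation p = 0.0683, adjusted 0.105).

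Over all 15408 genes tested, 9.44% were DEGs in FS and 2.09% in PWT, and 3916 and 3451 had an unadjusted p under 0.05, which is the background for the further lists. Of 20 further genes of the T cell receptor complex and its signalling, all were counted, 7 were tested and 0 were DEGs with edgeR in any comparison (0 of 7 at an unadjusted p under 0.05 in each). The most abundant was FYN, a kinase also expressed outside T cells, which was at 9.58 to 102 CPM. CD3G, a further CD3 subunit, had 28 counts in S2-03, 15 in S1-04, 11 in S1-02, 9 in S1-05 and at most 4 in the other 12 tumors. CD3G had its 4 highest levels in the 4 tumors with the highest CD3E, which belong to all 3 types. CD247, the zeta chain of the complex, did not have this order, with 24.4 CPM in S1-03 (2 counts of CD3E) and 19.7 in S1-07. It was at 17.8 CPM in S1-05, 13.3 in S1-04, 11.1 in S2-03 and 6.01 in S1-02. PTPN22, a phosphatase of T cell signalling, was highest in S2-09, at 25.8 CPM with 1 count of CD3E. The co-stimulatory receptor genes CD28 and ICOS were also highest in S2-03, at 16.7 and 18.3 CPM. CD28 followed at 4.59 CPM in S1-02, 2.95 in S2-11, 2.88 in S1-05 and 2.79 in S1-04, and ICOS at 7.43 CPM in S1-04, 5.49 in S2-04 (from 4 counts) and 5.30 in S1-02.

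Among 15 T cell transcription factor and cytokine receptor genes, 9 were tested. LEF1, a transcription factor of T cell development that is also used in Wnt signalling, was higher in FS (log2 fold change 2.56 ± 0.57, SE, edgeR adjusted p = 0.00787), and it was called without each of the 16 tumors in turn. Its level in FS was 79.9 CPM in S1-12, 53.5 in S1-11, 29.5 in S2-06 and 12.0 in S1-02, an order unlike that of CD3E in FS. Outside FS, LEF1 was highest in S1-05 (19.0 CPM), S1-04 (18.0) and S2-03 (15.9), the tumors there with the highest CD3E. LEF1 was at most 7.25 CPM in the rest of PNST and PWT. It was not called among S1 tumors (2.63) or in the histology groups (2.22), and it was not tested without the 5 tumors with keratin transcripts. BCL11B, a transcription factor of T cell development, was the most abundant gene of this list, at 3.89 to 120 CPM with a median of 32.6. CCR7 and IL7R, a chemokine and a cytokine receptor of naive and memory T cells, had 60 and 78 counts in S2-03.

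Of 14 cytotoxic T and NK cell genes matched, only CCL5, a chemokine of activated T cells, had enough counts for a test, and it was not a DEG. It was at 73.9 CPM in S1-02, 24.7 in S2-04 and 16.3 in S2-03, and at most 7.48 in the other 13 tumors. GZMK, a granzyme, had 49 counts in S1-02 and 9 each in S1-04 and S2-03. The summed level of the 14 genes was 134 CPM in S1-02, 42.6 in S2-03, 31.6 in S2-04 and 30.4 in S2-07, and at most 16.1 in the other 12 tumors. In S2-07, with 0 counts of CD3E, most of it was CD96, a receptor of T and NK cells, at 23.2 CPM, its highest level. S2-03 was highest instead for CXCL10, a chemokine that attracts T cells, with 44.2 CPM against at most 4.59 in the other 15 tumors. S1-02 and S2-03 thus shared CD3E and CD2 but differed in cytotoxic genes and CXCL10, a description of 2 tumors without a test.

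**Figure D4:**
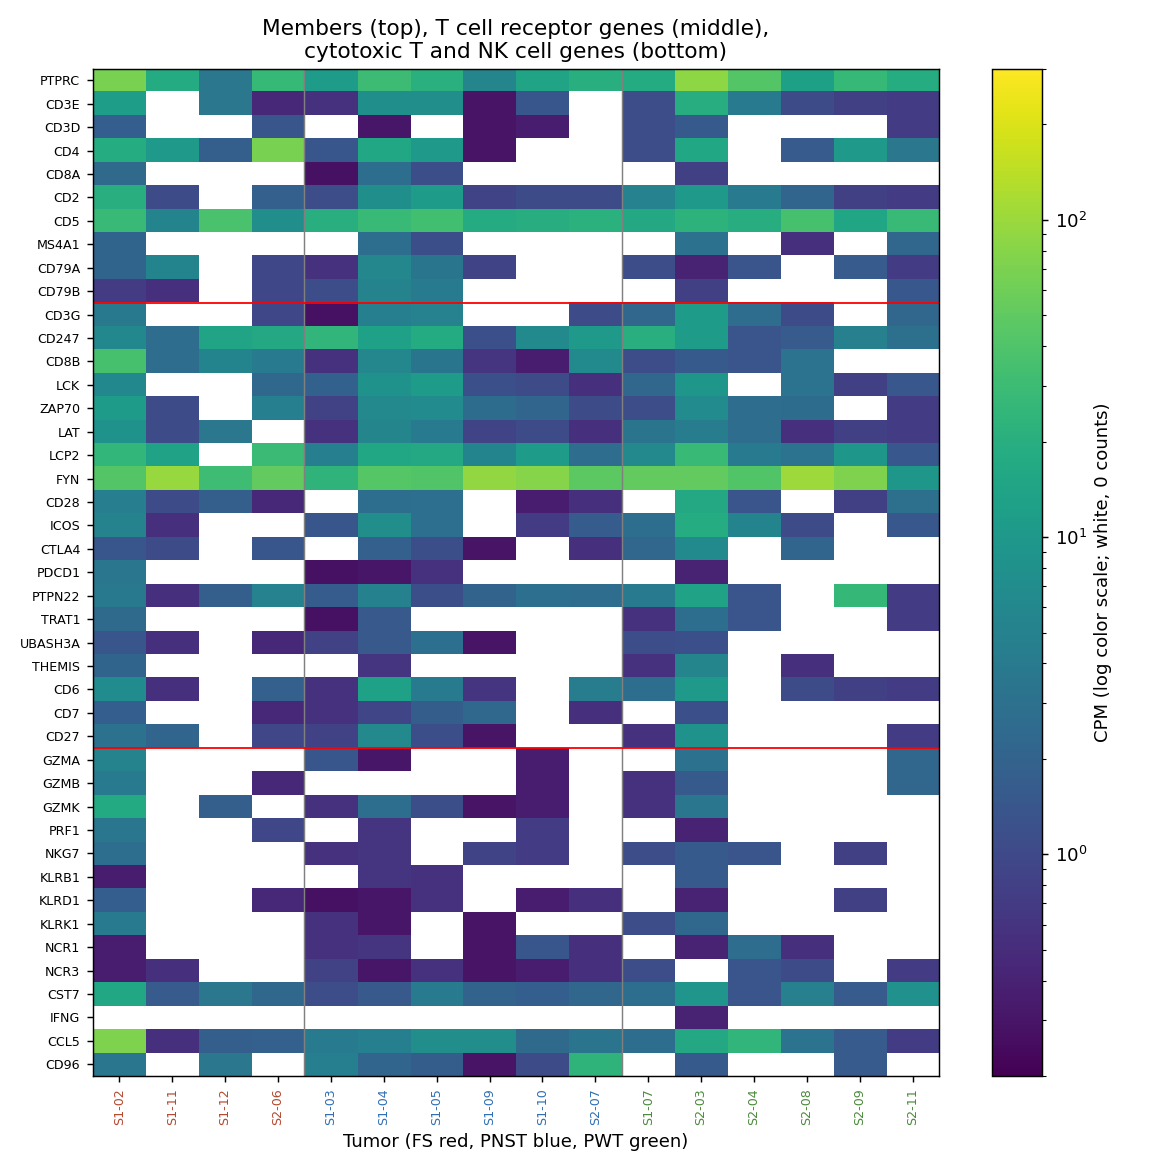
Level (CPM, log color scale, white for 0 counts) of the 10 lymphocyte genes, 19 T cell receptor genes and 14 cytotoxic T and NK cell genes (rows, from top to bottom) in each of 16 tumors (columns). Columns S1-02, S1-04 and S2-03 have the fewest white cells, and S1-02 has the highest CCL5, CD8B and GZMK.

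Of 19 further B cell genes matched, 10 were tested and 3 were DEGs in FS, against 9.44% of all genes. EBF1, a transcription factor of B cells that is also expressed in stromal cells, was the most abundant and was lower in FS (log2 fold change -1.91 ± 0.34, SE, edgeR adjusted p = 0.00162), also without each tumor in turn but not in the histology groups (-1.34, adjusted p = 0.0847). It was at 29.0 to 141 CPM in FS and 214 to 370 CPM in the other types, so the molecular groups did not overlap. S2-08, an FS by histology, was at 263 CPM, within the range of the other types. SYK and BANK1 were higher in FS (1.54 ± 0.46, adjusted p = 0.0382, and 1.93 ± 0.60, adjusted p = 0.0478). SYK was called in 8 of 16 repeats that left out a tumor (1.07 to 1.80) and BANK1 in 2 of 12 (1.80 to 2.31), the other 4 not testing it. BANK1 was at 28.6 CPM in S1-02 and at most 7.96 in the other 15. PAX5, which specifies B cells, had 25 counts in S1-04 and at most 6 elsewhere.

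Of 10 plasma cell genes, 7 were tested and 0 were DEGs with edgeR, while 2 had an unadjusted p under 0.05 in FS, 0 in PNST and 2 in PWT. XBP1, a transcription factor of plasma cells and of the secretory pathway in other cells, passed the adjusted threshold in FS but not that for the fold change (-0.86 ± 0.21, SE, edgeR adjusted p = 0.0132). TXNDC5 was the most abundant. JCHAIN, the joining chain of secreted IgA and IgM, was at 97.9 CPM in S1-02 and at most 29.0 in the other 15 tumors. Of 15 lymphocyte chemokine and receptor genes matched, 6 were tested and CXCL12, the most abundant, was lower in FS (-1.33 ± 0.35, SE, edgeR adjusted p = 0.0196). CXCL12 was not called without S1-12 (-1.10) or without the 5 keratin tumors (-0.99, adjusted p = 0.117).

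Of 17 pan-leukocyte genes, 15 were tested, CD52 had 0 counts in all 16 tumors, and LSP1 was higher in FS (2.20 ± 0.63, SE, edgeR adjusted p = 0.0320). LSP1, a leukocyte actin-binding protein, was at 510 CPM in S1-02 and from 21.1 to 123 CPM in the other FS, and its fold change fell to 0.69 without S1-02 (edgeR adjusted p = 0.555). It was also not called without S1-11 (2.32, adjusted p = 0.0550), with the prefix included (1.74, adjusted p = 0.120), among S1 tumors (2.26) or in the histology groups (1.81). The median log2 fold change of the 15 tested genes was 0.55 in FS, -0.54 in PNST and -0.26 in PWT.

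All 16 macrophage markers were counted, MRC1 being the most abundant, and MARCO had 0 counts in 11 tumors. Their summed level in FS was 1854 CPM in S1-02, 802 in S1-11, 434 in S2-06 and 231 in S1-12. In PNST it was 757 (S1-10), 592 (S1-04), 535 (S2-07), 481 (S1-05), 449 (S1-09) and 307 CPM (S1-03), and in PWT 1111 (S2-03), 803 (S2-04), 598 (S2-09), 386 (S1-07), 316 (S2-08) and 297 CPM (S2-11). S1-02 and S2-03, the 2 tumors with the highest PTPRC, were also the 2 highest for these markers, and the part of macrophages in the PTPRC level was not tested. Of 15 tested, C1QB, a complement gene, was higher in FS (95% interval of the log2 fold change 0.51 to 2.50, edgeR adjusted p = 0.0488). The log2 fold change was 0.31 without S1-02 and 1.40 to 1.88 without each other tumor, and it was called in 5 of these 16 repeats. It was not called with the prefix included (1.39, adjusted p = 0.116) or from the first runs (1.44, adjusted p = 0.0733). It was at 211 CPM in S1-02 and at most 57.3 in the other 15 tumors.

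Keratinocyte markers were high in the tumors with high CD3E and CD2. All 5 were counted, DSP being the most abundant, and their sum in FS was 1342 CPM in S1-02, 770 in S1-12, 106 in S1-11 and 18.3 in S2-06. In PNST it was 1212 CPM in S1-05 and 865 in S1-04, against 13.3 (S2-07), 11.1 (S1-10), 9.24 (S1-03) and 8.92 CPM (S1-09). In PWT it was 916 CPM in S2-03, against 11.8 (S1-07), 11.3 (S2-09), 9.58 (S2-11), 7.53 (S2-08) and 4.12 CPM (S2-04). KRT5, a keratin of basal epidermis, was at 162 to 321 CPM in S1-02, S1-12, S1-04, S1-05 and S2-03 and at most 0.936 CPM in the other 11 tumors, with 0 counts in 8 of them. S1-12 had these markers with 2 counts of CD3E and 0 of CD2, at 507728 counts in all. The part of skin in the levels of T cell genes was not tested.

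**Figure D5:**
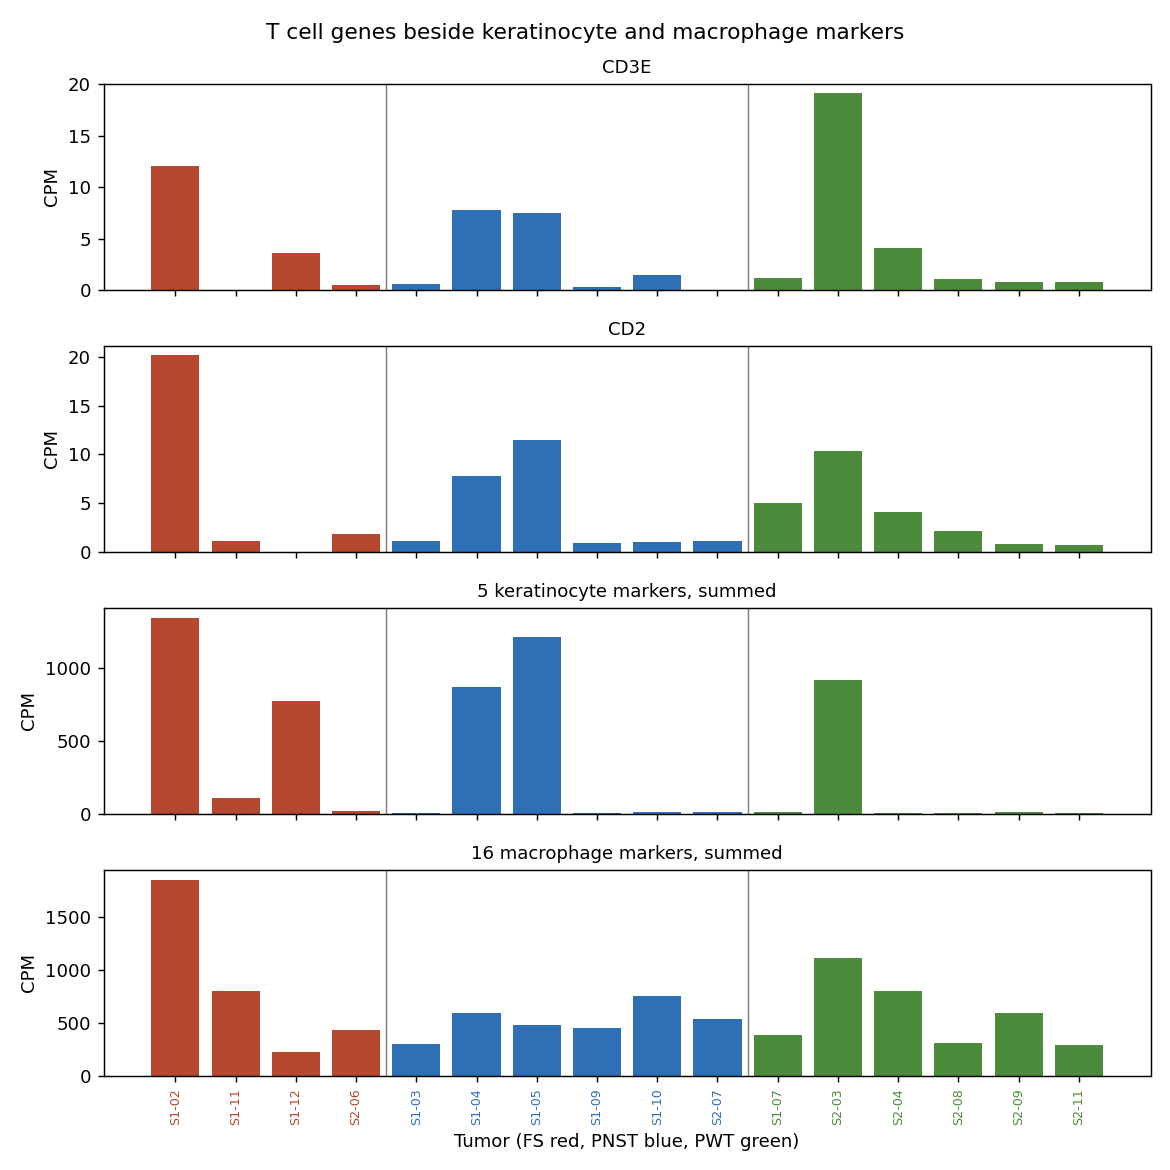
CD3E and CD2 (top panels) above the summed keratinocyte and macrophage markers (bottom panels), in CPM, with a bar for each of 16 tumors. S1-02, S1-04, S1-05 and S2-03 have the highest CD3E and CD2 and high keratinocyte markers. S1-12 has keratinocyte markers with 3.63 CPM of CD3E from 2 counts, under its 3-count limit of 5.45 CPM.

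The 5 genes most like the sum of CD3E, CD3D, CD2 and CD5 over the 16 tumors, by Spearman's rho, were RAB27B (0.91), KRTAP11-1 (0.88), CES1 (0.86), ABCA12 (0.86) and LOC119863999 (0.86). KRTAP11-1 is a keratin-associated protein gene of hair and ABCA12 a lipid transporter gene of the epidermis. CD5 was the largest part of this sum in each of the 16 tumors. The 5 genes most like PTPRC were ADGRG6 (0.93), LOC612422 (0.92), SLC46A3 (0.91), DENND4A (0.90) and BIRC3 (0.90). These are descriptions of the 16 tumors among 15408 genes.

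The remaining lists were checked for the cell types the sections could hold. Of 5 mast cell genes matched, KIT was the only gene tested, and it was not a DEG. Of 5 endothelial markers 0 were DEGs with edgeR, with VWF the most abundant and 1 at an unadjusted p under 0.05 in FS. COL1A1, the most abundant of 5 fibroblast markers, was higher in FS (1.81 ± 0.51, SE, edgeR adjusted p = 0.0281) and lower in PWT (-2.03 ± 0.52, adjusted p = 0.0455). The first was lost without S1-11 (0.83), without a filter on low counts (1.76, adjusted p = 0.0705) and among S1 tumors (1.62, adjusted p = 0.141). The second was lost without any of 11 tumors (-2.22 to -1.94), with the prefix included (-1.28, adjusted p = 0.486) and among S2 tumors (-0.94). It was also lost without a filter (-2.09), in the histology groups (-1.77), with S1-04 and S1-05 summed (-2.07) and without the keratin tumors (-2.07). In FS the other 4 were not DEGs, with PDGFRA at -0.89, DCN at -1.38, FAP at -1.11 and COL1A2 at 0.98. All 5 had an unadjusted p under 0.05 there, and their median log2 fold change was -0.89. Of 6 Schwann cell markers 3 were tested and 0 were DEGs with edgeR, with 1 at an unadjusted p under 0.05 in PNST. Of these 6, ERBB3 was the most abundant (3.22 to 43.2 CPM), and SOX10 had at most 16 counts in a PNST and 21 in S1-02, an FS. ACTA2, of 6 pericyte and smooth muscle markers, was higher in FS (2.40 ± 0.63, SE, edgeR adjusted p = 0.0198), though not called without S1-11 (1.28). PDGFRB was the most abundant of these 6. None of the 10 genes of these lists that were DEGs in FS was called by edgeR in the histology groups, where all 10 had an unadjusted p under 0.05. Among S1 tumors EBF1 and CXCL12 were called, and BANK1 and CXCL8 were not tested. Without the 5 keratin tumors EBF1, COL1A1 and ACTA2 were called, and LEF1, BANK1 and CXCL8 were not tested. BANK1 was also not called without a filter (1.91) or with the prefix included (2.11), and neither BANK1 (1.93) nor C1QB (1.48) with S1-04 and S1-05 summed.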

How the data were processed

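RNA of 16 tumors was sequenced on an Ion Proton. The authors aligned reads to the ROS-canfam-01 assembly with STAR and deposited the counts per gene from HTSeq, without normalization. Whether strand was used is not given in the sources used here. Rows of reads outside genes, ambiguous or aligned more than once held 73.9% of all values and were left out. The 3 runs of each S1 tumor were summed. S1-04 and S1-05 were counted as 2 tumors. Chi-square divided by its degrees of freedom was 12.1 for this pair, the lowest of the 15 PNST pairs (the others 17.9 to 54.2). It was 8.47 to 64.0 over all pairs within a type. Every pair thus differed by more than sampling noise, which does not tell 1 dog from 2. The labels do not say that all tumors came from different dogs.

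Counts were scaled with TMM. Genes reaching 10 counts in 4 or more tumors, 15408 in all, were tested with edgeR 4.0.16 (quasi-likelihood, each type against both others, Benjamini-Hochberg adjustment over all tested genes), after a test on simulated data. DESeq2 1.42.0 was an alternative, in R 4.3.3. Correlations used log2(CPM + 1) and two-sided permutation tests (100000 resamples, or exact under 10 tumors). Genes named were the 10 members, the DEGs and most abundant genes of 15 further lists, the 5 genes most like PTPRC and the 5 most like the T cell sum. Other genes were named after their values were seen. The members and lists were chosen with earlier results of these data known. XCL1, CR2, CXCL9 and TPSAB1 were not matched and are not analysed here, and some genes of the lists are counted in them but not reported singly here. Gene neighbours came from RefSeq's table of UU_Cfam_GSD_1.0, where 10 of 10 members were found by symbol.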

Additional observations from a re-analysis of the deposited data

Results flagged for a closer look

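Over the 30 combinations of a gene and a tumor type, a tumor lay far from all others of its type in 5, by Dixon's test at the 95% level. For normally distributed values, chance alone marks about 1 in 20 groups. CPM was used without logs, so this rate may not hold here. Groups with many counts of 0 are marked by a single tumor with a few counts, and groups of different genes share tumors. In FS, S1-02 stood apart for CD2 (20.1 CPM, next S2-06 with 1.87), for CD8A (2.47 CPM from 7 counts, others 0) and for MS4A1 (2.12 CPM from 6 counts, others 0). In PWT, S2-03 stood apart for CD3E (19.1 CPM, next S2-04 with 4.12) and for CD8A (0.796 CPM from 2 counts, others 0).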

How the results depend on the processing

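No paired analysis was possible because replicate numbers follow the order of the samples and pair nothing. Of the 10 genes, 2 to 10 were tested depending on the alternative, all 10 only without a filter. The number called was 0 under every alternative in each type, except that CD5 made it 1 in FS without the 5 tumors over 100 CPM of keratins, an alternative chosen after seeing the data. Leaving out each tumor gave 0 to 0 members in each type, 911 to 1582 DEGs in FS, 0 to 3 in PNST and 11 to 487 in PWT. DEGs in FS numbered 825 among S1 tumors and 205 in the histology groups. In PNST there were 2 without a filter, 295 with DESeq2, 170 against the mean of the other types, 1 from the first runs and 1 without the keratin tumors. In PWT there were 128 without a filter, 881 with DESeq2, 857 against the mean of the other types, and 0 with the prefix as a term, among S2 tumors, in the histology groups and without the keratin tumors.

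Signs changed only for fold changes that were not DEGs. In FS, CD3E was at -0.17 in the histology groups, CD5 at 0.0084 there and 0.00544 among S1 tumors, and PTPRC ranged from -0.55 to 0.64 when a tumor was left out. In PWT, CD2 was at 0.70 with the prefix as a term, and CD5 at -0.21 in the histology groups and -0.085 to 0.18 when a tumor was left out.

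For Pearson's r, CD3E with CD3D was at -0.16 without the 2 farthest tumors. CD79A with CD79B missed the threshold with S1-04 and S1-05 summed (0.54), in S1 (0.71), in S2 (0.10) and without the 2 farthest tumors (0.55), and PTPRC with CD3E with a pseudocount of 0.5 (0.53), S1-04 and S1-05 summed (0.58), in S1 (0.55) and in S2 (0.86). The causes were not tested. Low counts kept CD3D, CD8A, MS4A1, CD79A and CD79B out of most tests, and what difference could be detected in them was not tested.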
